A study of Oryctolagus cuniculus with 8 samples.

Results

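Cultured rabbit liver cells were set against cultured rabbit stomach cells, with 1 array of each. The cells stand in a series of 8 one-colour Agilent arrays, 1 for each sample, which also holds ES (embryonic stem) cells and iPS (induced pluripotent stem) cells. Per the labels, all came from Dutch rabbits, and the liver and stomach cells were grown in one medium for somatic cells while ES and iPS cells were kept in a stem cell medium. The other arrays were of a liver iPS line (iPS-L1) at passages 7 and 23, a stomach iPS line (iPS-S1) at passages 6 and 22, and the ES lines rdES4 and rdES2-1. The labels give no passage, age, sex or purification for the liver and stomach cells, and do not say whether the cultures came from the same animals as the iPS lines.

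A level is the log2 of the processed spot signal minus that of the 75th percentile of the array, so a level of 0 is that percentile. A difference is the level in liver cells minus that in stomach cells. A probe counted as measured where its spot was marked well above background in at least 1 of the 2 cultures, which held for 26671 of 43603 probes. These stood for 489 of the 680 genes that could be named. Of the 489, 430 were well above background in both cultures, 33 in liver cells only and 26 in stomach cells only. With 1 array a side there is no replicate error for the difference and no test, so every value below describes these arrays, and a difference is counted where it reached 2-fold.

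In the intact liver, hepatocytes make most plasma proteins, while stellate cells, endothelium, bile duct cells and resident macrophages make up the rest. The stomach wall holds an epithelium that secretes acid and pepsinogens, over layers of fibroblasts and smooth muscle. Adherent cultures of either organ can be overgrown by fibroblast and muscle-like cells, which make extracellular matrix and contractile proteins and answer to cytokines.

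The labels were checked against marker genes. ALB, serum albumin, the most abundant hepatocyte product, had a level of -6.64 in liver cells and -6.78 in stomach cells and was not well above background in either. Of 11 named hepatocyte genes, 6 were dim in both cultures: ALB, APOA1, ARG1, CRP, ABCB11 and SLC10A1. All 5 measured ones were at least 2-fold apart, and 4 of them were lower in liver cells, against 10.6% of all measured named genes. Likewise, CTSE, the gastric aspartic protease cathepsin E, was higher in liver cells, and ATP4B, a subunit of the gastric proton pump, was dim in both. The other 3 measured gastric genes, ATP4A, PGA5 and PGC, differed by under 2-fold between the cultures and were at levels of -3.27 or below. Some fibroblast and contractile genes were high in both cultures: DCN, the matrix proteoglycan decorin, had levels of 4.44 in liver cells and 5.42 in stomach cells, and ACTA2, smooth muscle actin, 7.02 in liver cells and 5.13 in stomach cells. DCN was dim on all 6 arrays of ES and iPS cells, where its level did not exceed -5.70. Most of the named markers thus go against a hepatocyte or gastric epithelial makeup of these cultures, with CTSE an exception. Below, "liver cells" and "stomach cells" mean the cultures so labelled. Whether the labels of the 2 arrays were exchanged cannot be settled from these files, and an exchange would turn every direction given. In RNA from a whole culture, fewer cells of a type and less RNA per cell cannot be told apart.

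The cultures resembled each other across most probes but lay further apart than any other pair of arrays compared. Among probes well above background on both arrays of a pair, 6.63% differed at least 2-fold between liver and stomach cells. The share was 2.53% between the ES lines, 3.8% and 3.23% between late and early passage of the liver and the stomach iPS line, and 2.96% and 1.42% between the liver and stomach iPS lines at early and late passage. Over the same probes, the SD of the difference was 0.61 for liver against stomach cells, against 0.398 for the ES pair and 0.319 to 0.449 for the iPS pairs. Liver and stomach cells lay on different slides, and so did the ES lines, on the same pair of slides. Slide and culture cannot be told apart from these 2 arrays alone, and the ES pair shows how far a pair of ES lines on those slides differed.

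**Figure D1:**
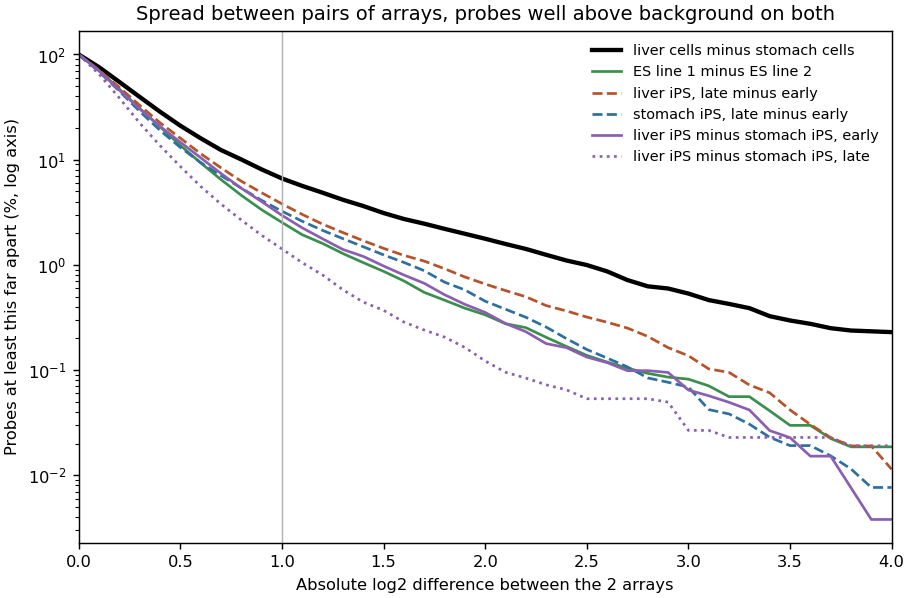
Share of probes (%, log axis) that lay at least a given absolute log2 difference apart, for 6 pairs of arrays, over probes well above background on both arrays of the pair. At a difference of 1 (grey line) the curve of liver cells minus stomach cells stands at 6.63%, above the other 5 pairs, which lie between 1.42% and 3.8%.

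Of the 26671 measured probes, 1580 (5.92%) were at least 2-fold higher in liver cells and 1565 (5.87%) at least 2-fold lower. Named genes were apart more often: of 489, 63 (12.9%) were higher and 52 (10.6%) lower in liver cells, with a median difference of -0.03. Among the named genes well above background in both cultures, 40 were higher and 39 lower. These 79 genes were picked by this difference, and in 16 of them the gene's own difference was larger within at least 1 of 3 pairs of one kind, namely the ES lines and each iPS line at its 2 passages. Among these were IL1A, IL6, VCAM1, MGP, PLN, TPM2, PAX6, S100B, EMP1 and TGFB2. The 3 pairs were compared whether or not the spots were well above background. IL6 was dim on all 6 ES and iPS arrays, so its larger difference there, 1.85, lay between dim spots. The scanner's own error of a difference had a median of 0.21 for probes on both arrays. For a further 36 named genes the 2-fold difference rested on a dim spot in 1 culture. There the fold is given as a bound, from the signal in the bright culture over the higher of the dim spot's own signal and the lowest signal well above background on that array. The bound reached 2-fold in 16 of the 23 genes higher in liver cells and in 7 of the 13 genes lower in liver cells. With another background correction, normexp, which adds an offset of 50 to every signal, 60 of the 115 genes stayed at least 2-fold apart in the same direction and none changed sign. By its construction it shrinks the differences of dim genes most, and the bounds given here need not hold under it.

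**Figure D2:**
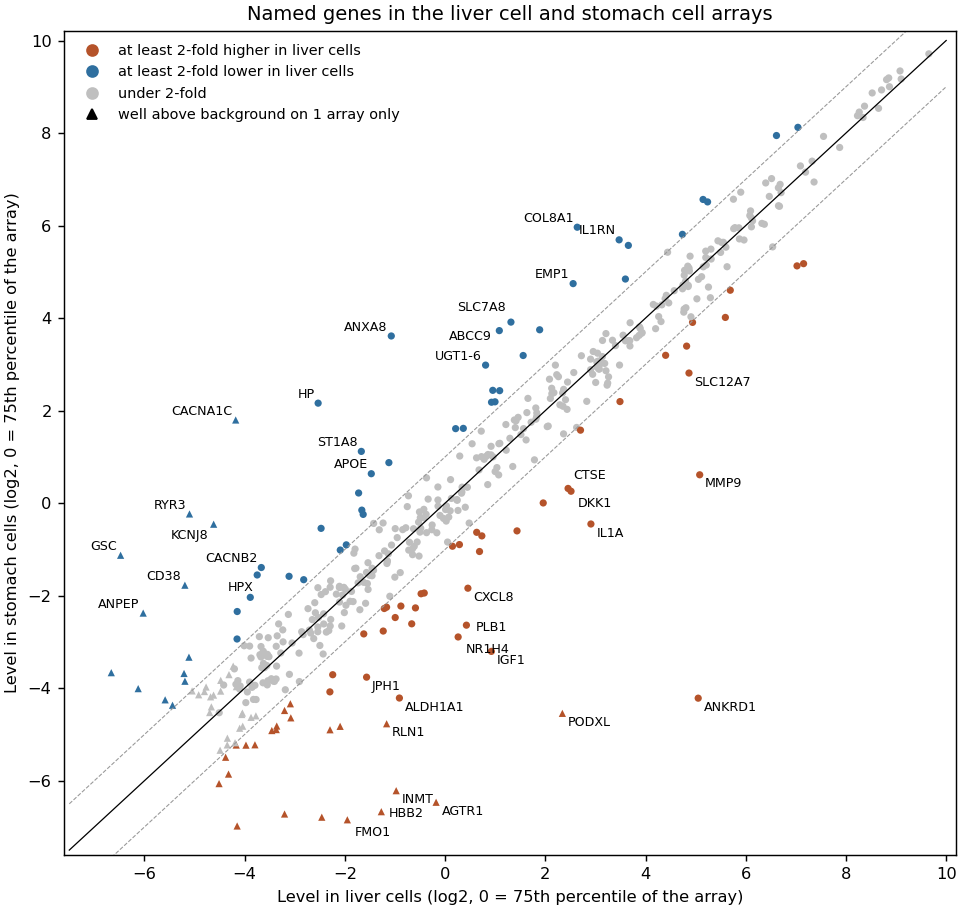
Levels of the 489 measured named genes in liver cells (x axis) and stomach cells (y axis), both log2 with 0 at the 75th percentile of the array. The solid line is equality, the dashed lines are 2-fold, and triangles are genes well above background on 1 array only. Most genes lie near the solid line, while ANKRD1 and PODXL stand far below it and CACNA1C far above it.

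The furthest apart was ANKRD1, a nuclear and sarcomeric ankyrin repeat protein that responds to mechanical load and to YAP signalling. Its level was 5.05 in liver cells and -4.22 in stomach cells, a difference of 9.27 or 616-fold. All 5 of its measured probes gave 9.20 to 9.61. Its level in stomach cells was near the lowest level well above background there, -4.65, and with normexp the difference was 6.29. On the ES and iPS arrays it lay between the cultures, at -0.79 to 1.51.

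Muscle genes were counted in a smooth muscle and a striated muscle list. Of 6 measured members of the smooth muscle list, 4 were at least 2-fold higher, none was lower, and the median difference was 1.21, against -0.03 over all named genes. The shares over all measured named genes were 12.9% higher and 10.6% lower. ACTA2 differed by 1.90. MYH11, smooth muscle myosin heavy chain, was at least 2.45-fold higher, with a level of -3.36 in liver cells and a dim spot in stomach cells. PLN, phospholamban, which restrains the calcium pump of the sarcoplasmic reticulum, had levels of -0.88 in liver cells and -2.23 in stomach cells. TPM2, beta-tropomyosin, had -1.17 in liver cells and -2.25 in stomach cells. Both PLN and TPM2 differed more within a pair of arrays of one kind, by up to 3.05 and 1.14, than between the cultures. CALD1, caldesmon, and TPM1, alpha-tropomyosin, were also brighter in liver cells, by 1.00 and 0.88, just short of 2-fold. The summed linear signal of the 7 named members, in units of the 75th percentile, was 254 in liver cells and 98.2 in stomach cells. Such a sum rests on the brightest members, ACTA2 among them, and MYH11, PLN and TPM2 added little to it. With normexp, 1 of the 6, ACTA2 at 1.86, stayed 2-fold higher and the median was 0.76. Of 7 measured striated muscle genes, none was higher in liver cells, 2 were lower and the median was -0.58. These were ATP2A1, a calcium pump of fast muscle, and TNNI2, fast troponin I, with differences of -1.85 and -1.53, while RYR1 differed by -0.78 and CKM, muscle creatine kinase, by -0.58. With normexp none of the 7 was 2-fold apart, and the ATP2A1 difference was -0.68 against the ES lines of the same slides. AGTR1, the angiotensin II receptor that drives contraction, had a level of -0.18 in liver cells and was dim in stomach cells, at least 22.2-fold lower there. It was also dim on all 6 ES and iPS arrays. The related genes BDKRB1, ACE, EDN1 and EDNRA, of the kinin, angiotensin and endothelin pathways, were within 2-fold. Of these, ACE, the angiotensin-converting enzyme, turned from 0.59 to -1.49 against the ES lines of the same slides, and EDNRA, an endothelin receptor, was -1.21 by the median over its probes. The AGTR1 difference, 6.29 on the log2 scale, was 1.62 with normexp.

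Several genes of calcium entry and of ATP-sensitive potassium channels were lower in liver cells. Voltage-gated calcium channels have a pore-forming alpha-1 subunit, helped by beta and alpha-2-delta subunits. Of 8 measured subunits, a group picked from the ion channel list after its values were seen, 4 were at least 2-fold lower in liver cells, none was higher, and the median difference was -1.19. Among all measured named genes 10.6% were lower. CACNA1C, the pore of the cardiac and smooth muscle L-type channel, was dim in liver cells and had a level of 1.80 in stomach cells, at least 63.0-fold lower in liver cells. Its level in liver cells, -4.18, was within its range on the ES and iPS arrays, -4.41 to -2.89. CACNB2, an auxiliary beta subunit, had -3.67 in liver cells and -1.39 in stomach cells, and its 6 probes gave differences of -2.83 to -2.15, while against the ES lines of the same slides its difference was -1.37. CACNB1 differed by -1.40 and CACNA1A, the P/Q-type pore, by -1.80. The subunits CACNA1B, CACNA1E and CACNB3 differed by under 0.3, and CACNA2D1 by -0.99. RYR3, a calcium release channel of the endoplasmic reticulum, was at least 19.6-fold lower in liver cells, where its spot was dim. With normexp, CACNA1C and CACNB1 stayed 2-fold lower, CACNA1C at -3.02, while CACNB2 was -0.77 and CACNA1A -0.44. RYR3 was -1.62 with normexp.

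KCNJ8 and ABCC9 encode the pore Kir6.1 and the sulfonylurea receptor SUR2, which assemble into the ATP-sensitive potassium channel of vascular muscle and pericytes. KCNJ8 had a dim spot in liver cells and a level of -0.46 in stomach cells, at least 16.8-fold lower in liver cells, with 5 probes between -4.46 and -3.77. ABCC9 had 1.08 in liver cells and 3.73 in stomach cells, with 3 probes between -2.65 and -2.30. Both subunits were therefore brighter in stomach cells on every measured probe. Set against the ES line of its own slide, the KCNJ8 difference was -1.63 and that of ABCC9 was -1.79. Other potassium channel genes went both ways. Of 8 measured potassium channel subunits, 2 were higher in liver cells, 2 were lower and 4 were within 2-fold. This group too was picked after its values were seen. KCNS3, a silent modifier subunit, was higher at least 4.57-fold, and KCNH2, the hERG channel, by 1.26. Besides KCNJ8, KCNMA1 was lower, with a difference of -1.335. With normexp KCNS3 and KCNH2 were 0.52 and 0.98 and KCNMA1 was -0.09, all under 2-fold, while KCNJ8 was -1.58. Over the ion channel list as a whole, 3 of 25 measured genes were higher, 6 were lower, and the median was -0.05, and with normexp none was higher and 3 were lower. Without normexp, 12.9% of all measured named genes were higher and 10.6% lower.

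Cytokine genes split. Interleukin 1 alpha and beta act through the same receptor, which IL1RN, the receptor antagonist, blocks. IL1A had a level of 2.91 in liver cells and -0.45 in stomach cells, a difference of 3.36, with 4 probes between 3.01 and 3.64. Set against the ES line of its own slide, this difference turned to -1.02. Within the pairs of arrays of one kind the IL1A difference reached 4.385, more than between the cultures. Its probe was well above background on 2 of the 6 ES and iPS arrays. IL1B was at least 5.89-fold higher in liver cells, with a dim spot in stomach cells, but differed by 0.52, under 2-fold, with normexp. IL1RN was lower in liver cells, with 3.47 in liver cells and 5.69 in stomach cells. CXCL8, a neutrophil chemokine, had 0.46 in liver cells and -1.84 in stomach cells, and its 7 probes gave 2.25 to 3.24. CCL2, a monocyte chemokine, was higher by 1.58 and VCAM1, a leukocyte adhesion molecule, by 1.43. In contrast, IL6 was lower in liver cells, with 1.00 in liver cells and 2.19 in stomach cells, and SAA3, an acute-phase protein, had 6.61 in liver cells and 7.95 in stomach cells. Of 16 measured inflammation genes, 5 were higher and 3 lower, against 12.9% and 10.6% of all named genes, and the median was -0.25. The other 8 differed by under 2-fold, among them the Toll-like receptor TLR2 and PTGS2, the inducible cyclooxygenase. None of 8 measured prostaglandin genes was 2-fold apart, and of all 489 measured named genes 374 were under 2-fold. Against the ES lines of the same slides 2 were 2-fold higher, PTGER4, a prostaglandin E receptor, at 2.37 and PLA2G4A, a phospholipase A2, which turned from -0.49 to 1.55.

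The macrophage list rests on 2 measured genes, both higher in liver cells. MSR1, a scavenger receptor, had -0.48 in liver cells and -1.96 in stomach cells, and CD14, the lipopolysaccharide co-receptor, 0.15 in liver cells and -0.93 in stomach cells. With normexp they differed by 0.91 and 0.79, under 2-fold. Of the 7 named macrophage and leukocyte genes, the other 5, CYBB, CD4, CD3E, CD28 and CD5, were dim in both cultures. The summed signal of the list was 1.89 in liver cells and 0.865 in stomach cells, in units of the 75th percentile. The part of such cells in the cytokine differences was not tested. HBB2, a beta-globin of red cells, was also brighter in liver cells, at least 10.4-fold, while HBA, an alpha-globin, differed by -0.05. The HBB2 difference was 1.13 with normexp.

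Among matrix genes, MMP9, gelatinase B, stood out with 5.08 in liver cells and 0.61 in stomach cells, a difference of 4.47. On the ES and iPS arrays it did not exceed -0.82. MMP3, stromelysin 1, was higher by 1.67 on its brightest probe, or 0.93 against the ES lines of the same slides, and its 3 probes ranged from 1.67 to 6.69. With normexp it was 0.79. MMP13, a collagenase, was just well above background in liver cells and dim in stomach cells, with a bound of 1.42-fold. MMP2 and MMP14 were within 2-fold. TIMP1, an inhibitor of these proteases, was lower in liver cells, with 7.04 in liver cells and 8.12 in stomach cells, a difference of -1.08 that was -0.78 with quantile normalization. COL8A1, a short-chain collagen of vessel walls, had 2.64 in liver cells and 5.96 in stomach cells. MGP, matrix Gla protein, an inhibitor of calcification, had 7.15 in liver cells and 5.18 in stomach cells, and its 9 probes gave 1.78 to 2.15. Set against the ES line of its own slide, the MGP difference was 0.94.

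**Figure D3:**
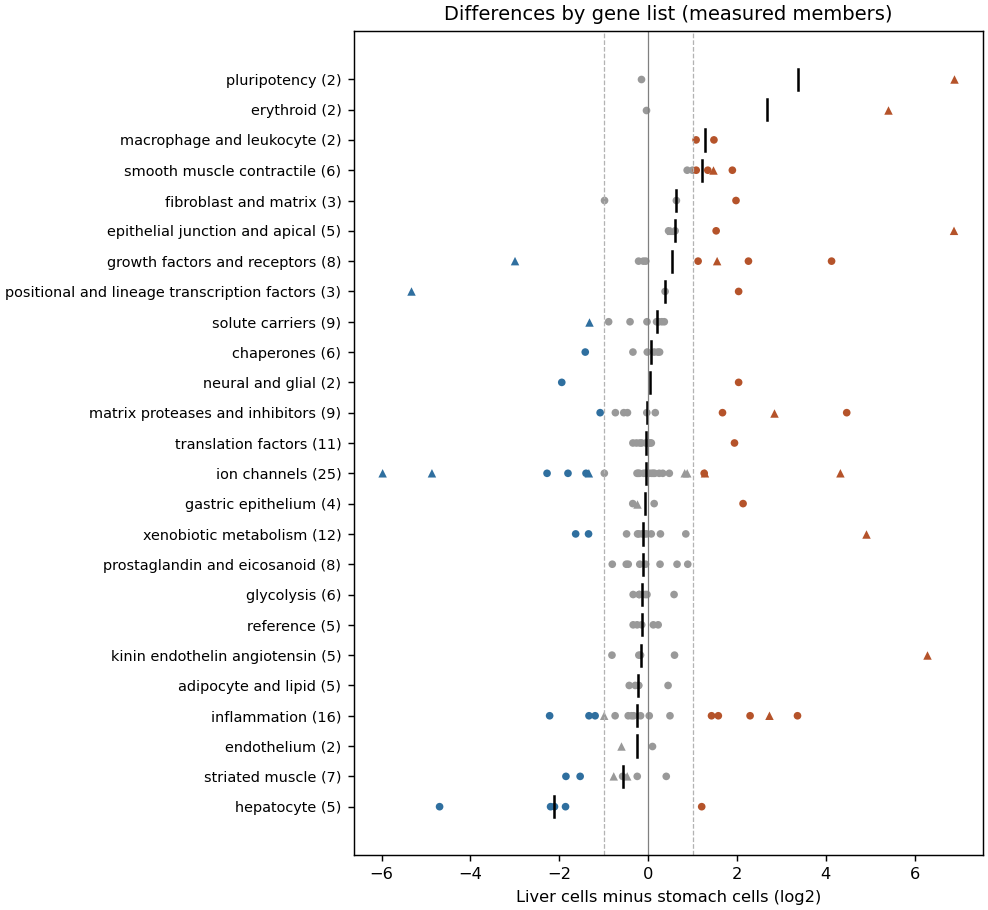
Differences (liver cells minus stomach cells, log2) of the measured members of each gene list with at least 2 of them, with the number of measured members in brackets and the median as a black bar. Orange points are at least 2-fold higher and blue points at least 2-fold lower in liver cells, grey points are under 2-fold, and triangles were well above background on 1 array only. The smooth muscle list lies wholly above 0, with a median of 1.21, and 4 of the 5 hepatocyte genes lie below -1.

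Of 8 measured growth factor and receptor genes, 4 were higher in liver cells, 1 was lower and 3 were within 2-fold. Over all measured named genes, 12.9% were higher and 10.6% lower. IGF1, insulin-like growth factor 1, had 0.92 in liver cells and -3.21 in stomach cells, with 5 probes between 4.13 and 4.53. DKK1, a secreted inhibitor of Wnt signalling, had 2.51 in liver cells and 0.26 in stomach cells. TGFB2 was higher by 1.12. KITLG, the ligand of the receptor KIT, was 2-fold apart only against a dim spot, with a bound under 2-fold. The prolactin receptor PRLR was lower in liver cells against a dim spot, with a bound of 1.82-fold. The median of the list was 0.54, and -0.04 with normexp, where 3 were higher and none was lower.

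Plasma protein genes of the hepatocyte list were mostly lower in liver cells. HP, haptoglobin, which binds free haemoglobin, had -2.53 in liver cells and 2.16 in stomach cells, a difference of -4.70 or 25.9-fold, and its second probe gave -4.85. HPX, hemopexin, which binds haem, had -3.75 in liver cells and -1.55 in stomach cells, and differed by -0.70 with normexp. The lipid carrier APOE had -1.47 in liver cells and 0.64 in stomach cells, and the retinol carrier RBP4 had 1.89 in liver cells and 3.75 in stomach cells. The levels of HPX and APOE in liver cells were within their ranges on the ES and iPS arrays. The exception was TF, transferrin, which was higher by 1.20 in liver cells, or by 0.68 against the ES lines of the same slides and 0.37 with normexp.

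Nuclear receptor and enzyme genes moved both ways. NR1H4, the bile acid receptor FXR, had 0.26 in liver cells and -2.89 in stomach cells, and its 2 probes gave 3.15 and 3.20. ALDH1A1, which makes retinoic acid from retinal, had -0.91 in liver cells and -4.21 in stomach cells. FMO1, a flavin monooxygenase, was at least 6.5-fold higher on its brightest probe, while its 3 probes ranged from 1.82 to 4.89 and the brightest differed by 0.84, under 2-fold, with normexp. The other 4 measured flavin monooxygenases were within 2-fold. INMT, an N-methyltransferase of indoles, was at least 12.8-fold higher and PLB1, phospholipase B, was higher by 3.06. With normexp they differed by 1.12 and 1.72. On the other side, UGT1-6, a glucuronosyltransferase, had 0.81 in liver cells and 2.98 in stomach cells. The sulfotransferase gene ST1A8 had -1.67 in liver cells and 1.12 in stomach cells. ABCB1, a drug efflux pump, and CYP4B1, a cytochrome P450, differed by -1.63 and -1.34. Of 12 measured genes of xenobiotic metabolism, 1 was higher, 2 were lower and 9 were within 2-fold. These counts were near the shares over all measured named genes, 12.9% higher and 10.6% lower.

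Of 5 measured epithelial junction and apical genes, 2 were higher in liver cells, PODXL and CXADR, and 3 were within 2-fold, among them EZR at 0.61 and PDZK1 at 0.51. The share higher over all measured named genes was 12.9%. PODXL, podocalyxin, a sialomucin of apical membranes and of pluripotent cells, had 2.34 in liver cells and was dim in stomach cells, at least 118-fold lower there. Its 3 probes gave 6.88 to 8.44, and with normexp the difference was 3.38. It was brighter on all 6 ES and iPS arrays, at 7.29 to 7.63. POU5F1, the pluripotency factor OCT4, did not move with it, with -3.62 in liver cells and -3.46 in stomach cells, against 6.69 to 7.62 on the ES and iPS arrays. CXADR, a tight junction adhesion protein, was higher in liver cells by 1.53, or 0.62 with normexp. Among other genes of membrane proteins, named because they were furthest apart, SLC12A7, a potassium chloride cotransporter, had 4.87 in liver cells and 2.81 in stomach cells, and its 5 probes gave 1.97 to 2.14. JPH1, junctophilin 1, which tethers the plasma membrane to the sarcoplasmic reticulum, had -1.57 in liver cells and -3.76 in stomach cells, and the difference was 0.73 with normexp. Lower in liver cells were ANXA8, an annexin, with -1.07 in liver cells and 3.61 in stomach cells, and SLC7A8, a neutral amino acid transporter, with 1.31 in liver cells and 3.91 in stomach cells. EMP1, an epithelial membrane protein, differed by -2.19, or by -3.69 against the ES lines of the same slides. The ectoenzymes CD38 and ANPEP were at least 6.74-fold and 4.43-fold lower in liver cells, where both were dim. With normexp they differed by -0.86 and -0.65, under 2-fold.

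Of transcription factors and neural genes, PAX6 had 1.44 in liver cells and -0.60 in stomach cells. GSC, goosecoid, was at least 10.6-fold lower in liver cells, where it was dim, and differed by -1.03 with normexp. S100B, a calcium-binding protein of glia, had -1.73 in liver cells and 0.22 in stomach cells. Both PAX6 and S100B differed more within a pair of arrays of one kind, by up to 4.16 and 4.38, than between the cultures. RLN1, relaxin, was at least 11.2-fold higher in liver cells, while with normexp it differed by 1.02.

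Metabolic and reference genes were close. None of 6 measured glycolysis genes and none of 5 reference genes was 2-fold apart. Most measured named genes, 374 of 489, were likewise under 2-fold, so such small counts set these lists little apart. ACTB had 8.65 in liver cells and 8.53 in stomach cells, GAPDH had 8.85 in liver cells and 9.19 in stomach cells, and PPIA had 6.65 in liver cells and 6.43 in stomach cells. HPRT1 differed by -0.25. Of 11 translation factors, EEF1A2, an elongation factor form typical of muscle and neurons, was higher in liver cells by 1.94, or 0.81 with normexp, and the other 10 differed by at most 0.34. Of 6 chaperones, CLU, clusterin, was lower in liver cells, with 5.15 in liver cells and 6.56 in stomach cells.

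**Figure D4:**
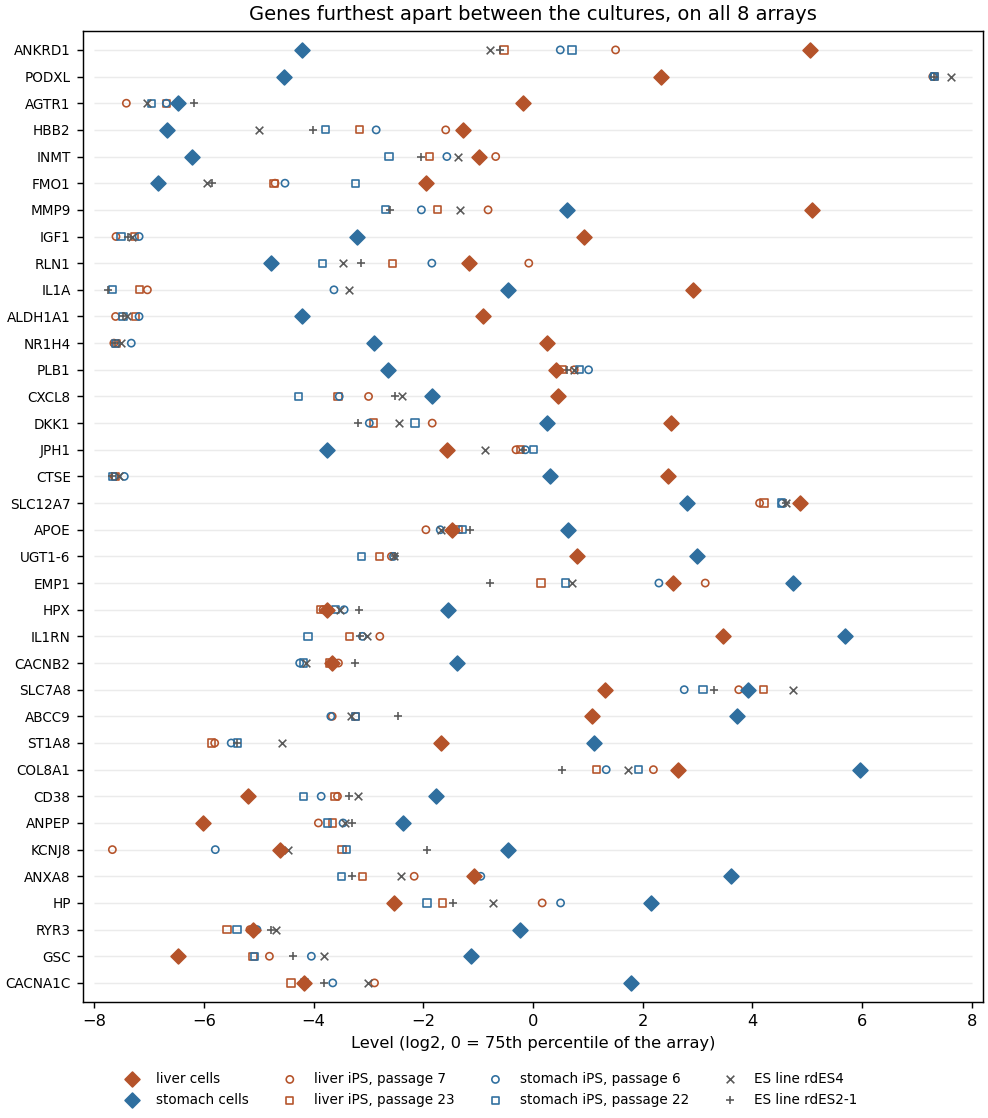
Levels (log2, 0 at the 75th percentile of the array) of the 36 named genes furthest apart, in liver cells and stomach cells (filled diamonds) and on the 6 ES and iPS arrays (open symbols and crosses). Genes run from ANKRD1, highest in liver cells relative to stomach cells, to CACNA1C, lowest. Levels under -4.53 in liver cells and under -4.65 in stomach cells lie below every spot well above background on that array. PODXL is brighter on all 6 ES and iPS arrays than in either culture, while CTSE, IGF1, NR1H4 and ALDH1A1 are dim there.

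The 6 ES and iPS arrays show where these genes stand in pluripotent cells. Of the 63 genes higher in liver cells, 29 had lower levels on all 6 arrays than in either culture and 12 had higher levels on all 6. Of the 52 genes lower in liver cells, 25 lay below both cultures on all 6 and 3 lay above. The other 374 measured genes did so in 194 and 83 cases, so the share below both cultures was near that of genes under 2-fold apart. Some of the 115 genes were well above background in at least 1 culture and on none of the 6 arrays. Of these, 11 were higher in liver cells, among them IGF1, AGTR1, CTSE, NR1H4, ALDH1A1, IL1B and MSR1, and 6 were lower, among them IL6 and SAA3. Of the other 374 genes, 14 were dim on all 6 arrays.

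The liver and stomach iPS lines did not differ as the cultures did. Across the 22107 probes well above background on all 8 arrays, the difference between the cultures and that between the iPS lines had a Pearson correlation of 0.035 at early and 0.036 at late passage. These comparisons share no array, although the liver cells and the liver iPS line were on one slide. The iPS differences at early and late passage, from other arrays of the same 2 lines, had a correlation of 0.342. Among named genes measured in both the cultures and the iPS pair, 5.17% were at least 2-fold higher in the liver iPS line than in the stomach iPS line at early passage and 3.37% were lower, and at late passage 1.82% were higher and 3.87% lower. Of the 63 genes higher in liver cells, 50 were measured in the early iPS pair, and 9 of these were 2-fold higher and 5 lower in the liver iPS line. In the late pair 48 were measured, with 2 higher and 6 lower. Of the 52 genes lower in liver cells, 2 of 41 measured were lower and none higher at early passage, and 2 of 42 were lower and 1 higher at late passage. The difference of the cultures was present at 2-fold at both passages for 2 genes, NPY and RLN1, and was reversed at both for 1. No count at both passages is given for the 374 genes under 2-fold in the cultures, so these 2 genes and 1 gene have no share to stand beside. At single passages, 354 of the 374 were measured in the early iPS pair. There 8 were 2-fold apart in the direction of their smaller culture difference and 14 in the opposite direction. In the late pair 349 were measured, with 9 and 5. A link to the tissue of origin was not tested. NPY, neuropeptide Y, differed by 1.30 between the cultures and by 1.45 and 1.03 between the iPS lines at early and late passage. RLN1 differed by 1.77 and 1.28 between the iPS lines. SPP1, osteopontin, ran the opposite way at both passages, with 1.95 between the cultures (0.89 against the ES lines of the same slides) and -2.90 and -1.95 between the iPS lines. These 3 genes were chosen after their values were seen.

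**Figure D5:**
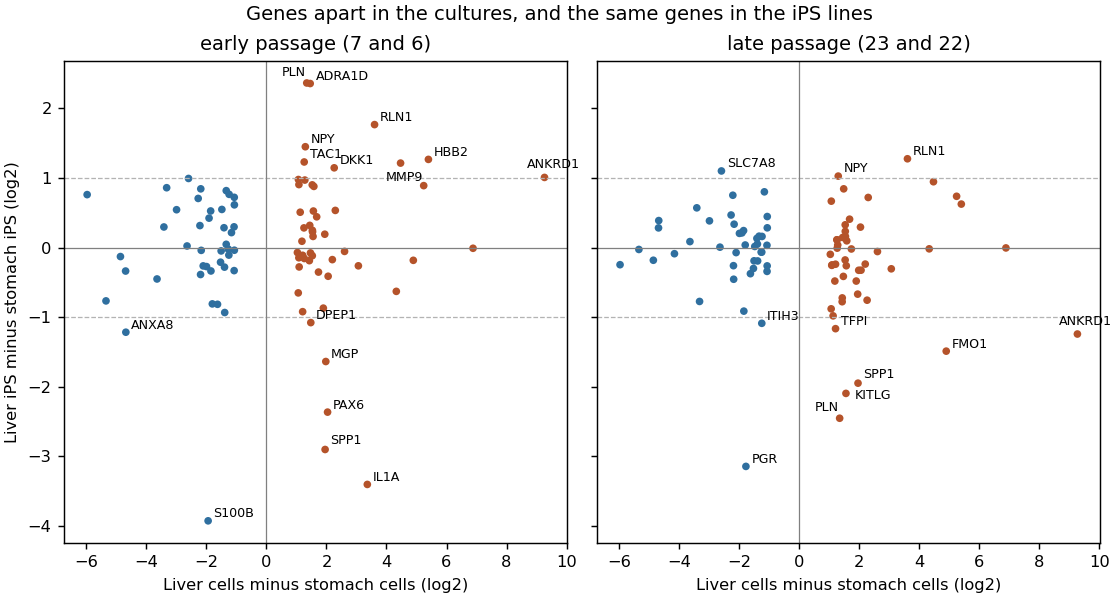
Difference between the cultures (x axis, liver cells minus stomach cells, log2) and between the iPS lines (y axis, liver iPS minus stomach iPS, log2) at early and late passage, for the genes at least 2-fold apart in the cultures and measured in the iPS pair. Orange genes are higher and blue genes lower in liver cells, and those past 2-fold in the iPS pair (dashed lines) are named. Most points lie within the dashed lines, and RLN1 and NPY are above 1 in both panels.

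Most probes had no gene name. Of 25389 measured probes without a symbol, 1408 (5.55%) were at least 2-fold higher and 1421 (5.6%) at least 2-fold lower in liver cells, with differences up to 7.38 and down to -8.62. Several probes of one gene mostly gave similar differences, less so where a probe reached 2-fold. Among 257 named genes with several measured probes, the range between probes had a median of 0.24, a 90th percentile of 1 and a maximum of 5.16. In 73 of them at least 1 probe was 2-fold apart. All probes were 2-fold higher in 32 and 2-fold lower in 22, and 2 had probes 2-fold apart in both directions. Among 5007 transcripts without a symbol that had several measured probes, 770 had at least 1 probe 2-fold apart. All probes were at least 2-fold higher in 155 and at least 2-fold lower in 152, while 18 had probes 2-fold apart in both directions.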

How the data were processed

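RNA levels were measured on 8 one-colour Agilent arrays. Per the file headers, the deposited intensity of each spot came from Agilent Feature Extraction 10.5.1.1, with background subtracted and no scaling between arrays. The authors' deposited log2 table matched these levels centred per probe and served as an alternative. Its direction, scale and centring were settled by that match, with column medians between -0.0416 and 0.342. Arrays differed in brightness, with a 75th percentile of 163.8 in liver cells, 154.8 in stomach cells and 273.8 to 341.5 elsewhere. Well above background were 57.79% of probes in liver cells and 58.43% in stomach cells. The number of arrays limits the precision. Over probes with 5 spots, the median SD of the log2 level was 0.07 in liver cells and 0.083 in stomach cells.

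Control spots were left out, and 9 probes with uneven or outlying spots were not counted. No spot was saturated. Probes carry accessions, and symbols came from RefSeq names of the rabbit assembly mOryCun1.1, which named 1933 probes of 680 genes. A gene stood by the probe of highest mean level over the 8 arrays. Members, gene lists and alternatives were chosen with earlier results of these data known. Genes named were the 12 and 12 furthest apart on both arrays, the 6 and 6 with the largest bounds, up to 4 of each list and a few fixed genes. Others named were chosen after their values were seen. Alternatives were quantile normalization and normexp in limma 3.58.1 under R 4.3.3 (normexp on the median spot signal with offset 50), no scaling, median scaling, other filters and folds, the median over probes and the ES line of the same slide as anchor. The counting code was run on simulated data with large planted differences, which checks the code only and says nothing of the error of these arrays.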

Additional observations from a re-analysis of the deposited data

Results flagged for a closer look

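ANKRD1 was singled out because the change to iPS cells ran in opposite directions in the 2 tissues on every array. The liver iPS line was lower than liver cells by -3.54 at early and -5.58 at late passage on the log2 scale, and the stomach iPS line was higher than stomach cells by 4.71 and 4.93. The difference between the mean changes was -9.38. That difference was not tested, since each culture had 1 array, and it follows from the levels of the cultures themselves, between which all 4 iPS arrays lay.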

How the results depend on the processing

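Against 1580 probes higher and 1565 probes lower in liver cells, 63 named genes higher in liver cells and 52 named genes lower in liver cells, and an SD of 0.878 over probes, normexp background correction gave 349 and 393 probes, 30 and 31 genes and an SD of 0.41. Probes well above background on both arrays gave 811 and 779 probes, with 40 genes higher. No filter on dim probes gave 2850 and 2840 probes, and a 4-fold limit gave 640 and 649 probes and 24 and 20 genes. The gene IL1A turned to -1.02 with the ES line of the same slide as anchor, an alternative added after seeing the data. Its probe was well above background on 2 of the 6 ES and iPS arrays, and its difference reached 4.385 within a pair of arrays of one kind. Of the 115 named genes at least 2-fold apart, 111 stayed so in the same direction with quantile normalization, 111 without scaling, 114 with median scaling, 60 with normexp, 115 in the authors' table, 114 by the median over probes and 99 with the slide anchor. With each dim side set to that array's detection limit where it lay under it, also added later, 102 stayed. The slide anchor ended the 2-fold difference of 16 of the 115, among them IL1A, MGP, MMP3, SPP1, TF and ATP2A1, and took ACE, NOS3, PLA2G4A and RYR1, among the genes under it, past 2-fold. The cause of the slide anchor's shifts was not tested. No paired analysis was possible because each culture has 1 array. Leaving out a replicate was not possible for the same reason. Genes dim in 1 culture have only a bound.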
